A study of Mus musculus with 6 samples.

Results

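Core glycolytic enzymes turn glucose 6-phosphate into pyruvate and lactate, and 10 of their genes were chosen here by name: Gpi1, Pfkl, Pfkm, Pfkp, Aldoa, Tpi1, Pgk1, Pgam1, Pkm and Ldha. Their RNA was measured in epididymal white adipose tissue (WAT, the fat pad beside the epididymis) on Affymetrix mouse arrays, where a probe set is a group of short probes against 1 transcript. Probe sets annotated to exactly 1 of these symbols numbered 18 of 22690 on the array and covered 9 of the 10 genes, and no probe set carried the symbol Gpi1. After removal of the lowest 35% of probe sets by mean log2 signal, 17 of the 18 were tested, at least 1 for each of the 9 genes.

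The TSR group held 3 samples of wild-type C57BL/6 mice under timed sleep restriction (TSR), kept awake by gentle handling for 6 h from lights on, on each of 5 days, with tissue taken on the final day at ZT18 (Zeitgeber time, hours after lights on). The control group held 3 samples of wild-type C57BL/6 mice without TSR, with tissue taken at the same hour, in the middle of the dark phase. The study used males of 9 to 11 weeks, housed in groups, and its methods and the labels differ on how the tissue was preserved and the RNA extracted. No source used here says whether an array held 1 animal or a pool, so all p-values here reflect the spread among 3 arrays a group, which may be technical.

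Glycolysis splits glucose into pyruvate and yields ATP and NADH. In fat cells it also supplies glycerol 3-phosphate, the backbone of triglycerides, and pyruvate for acetyl-CoA, from which fatty acids are built. Insulin raises glucose uptake and glycolysis in this tissue, phosphofructokinase is the main point of control, and many enzymes of the pathway exist as isozymes that differ between tissues.

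The authors deposited linear MAS5 signals, a summary of each probe set's brightness. With 2% of values trimmed at each end the mean signal was 500.2 on all 6 arrays, median signals lay between 135 and 141 in TSR and between 126 and 131 in control samples, and log2 signals of the tested probe sets gave r of 0.991 to 0.993 for arrays of the same group and 0.962 to 0.965 for arrays of different groups. The WAT label was checked with the adipocyte markers Fabp4, with a mean signal of 16823.5 in TSR and 22601.3 in control samples by its brightest probe set, and Adiponectin (Adipoq), with 13080.2 and 18071.9 in the same order. Of 18 tested probe sets of hepatocyte (liver cell) genes, 17 were higher and 1 was lower after TSR, with a summed signal of all 25 between 28942.3 and 32559.6 in TSR and between 15673.5 and 19414.0 in control samples. Most of the control sum came from Cyp2e1, the one that was lower, and the other 24 summed to between 18002.4 and 18570.7 in TSR and between 648 and 777 in control samples. The median log2 fold change of all 14707 probe sets tested was 0.035 as deposited and -0.071 after each array was centred on its median, a shift of 0.11.

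Most probe sets of the core glycolytic enzymes were higher after TSR. Of the 17 tested probe sets 14 rose in limma with Benjamini-Hochberg adjustment (82.4%), 0 fell and 3 did not pass. Of all probe sets tested 25.6% rose and 21% fell, 46.6% in either direction. The median log2 fold change of the 17 was 0.39. The rise was largest for Pkm, which encodes muscle-type pyruvate kinase, followed by Pgam1 (phosphoglycerate mutase), Pfkl (liver-type phosphofructokinase) and 1 probe set of Aldoa (aldolase A). Only Pkm reached a log2 fold change of 1. Of all probe sets tested, 2.21% both rose significantly and reached that change. The groups did not overlap in 14 of the 17, with TSR higher, as in 31.4% of all probe sets tested. Relative to the median of each array the pattern was narrower: after median centring 9 of the 17 rose (52.9%) and 16.7% of all probe sets tested did. After quantile normalization 15 of the 17 rose, and 21.1% of all. In the test named in the methods, an unmoderated comparison of means, run here on linear signals, 12 of the 17 rose, and 19.8% of all. As deposited and in all 15 alternatives 8 of the 17 rose, against 15.9% of the 11313 probe sets tested in every one. The 9 after median centring belonged to Pfkl, Pfkm, Pfkp, Aldoa, Pgam1 and Pkm, and all probe sets of Tpi1, Pgk1 and Ldha were below the threshold there.

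**Figure D1:**
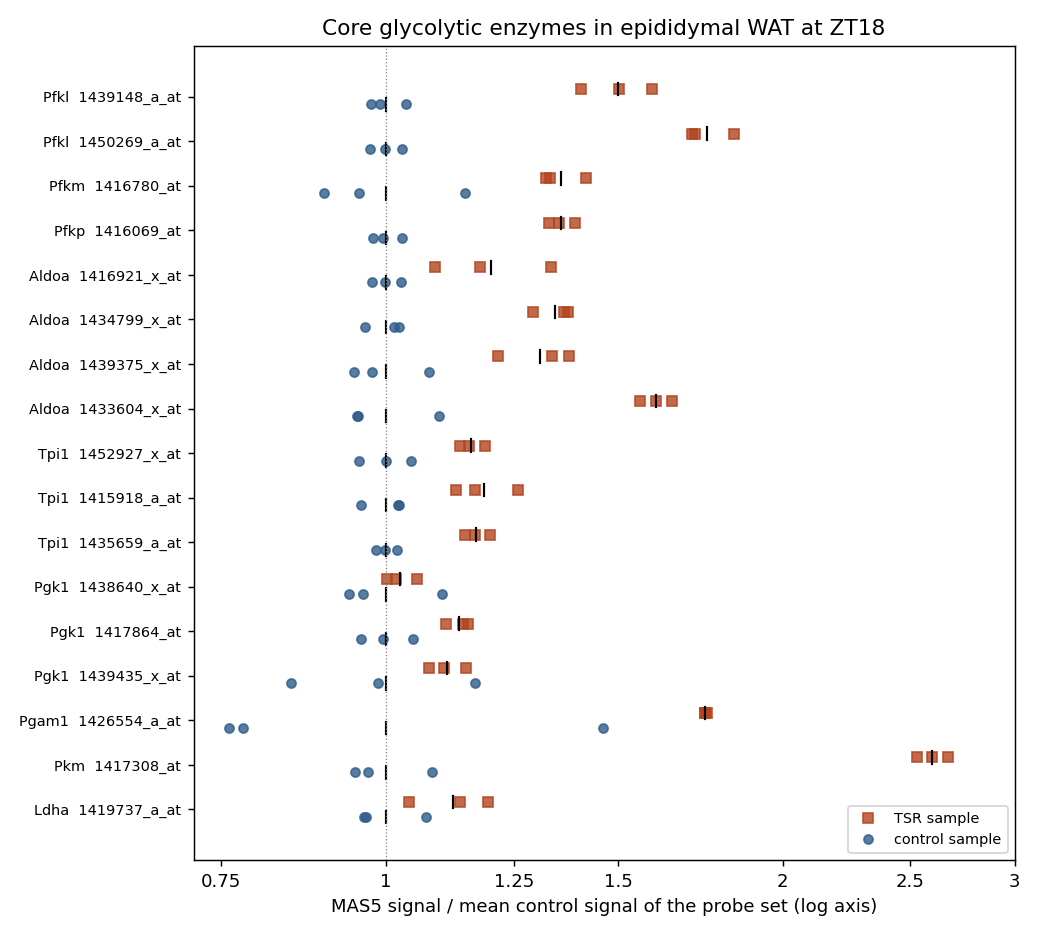
MAS5 signal of the 17 tested probe sets of core glycolytic enzymes, each divided by the mean control signal of that probe set (log axis), in 3 TSR samples (squares) and 3 control samples (circles), with group means as vertical bars. Rows follow the pathway from phosphofructokinase to lactate dehydrogenase. The TSR samples lie above all control samples except in Ldha and 2 of the 3 probe sets of Pgk1, and for Pgam1 control replicate 3 lies close to the TSR samples.

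Phosphofructokinase commits sugar to glycolysis by phosphorylating fructose 6-phosphate, and its subunits are encoded by Pfkl, Pfkm and Pfkp, the liver, muscle and platelet types. The brighter probe set of Pfkl had signals of 495, 525 and 463 in the 3 TSR samples, against 341, 326 and 321 in the control samples. All TSR samples lay above all control samples, and the log2 fold change was 0.58 (standard error 0.069, adjusted p = 1.9e-04 from limma). The dimmer probe set of Pfkl had 246, 229 and 229.9 in TSR against 134, 138 and 130.4 in control samples, with a log2 fold change of 0.81 (standard error 0.088, adjusted p = 1.2e-04 from limma). The within-array log2 ratio of the Pfkl probe sets averaged 1.07 in TSR and 1.30 in control samples. This ratio did not overlap between the groups (two-sided exact permutation test, p = 0.1, which is the lowest value possible with 3 samples a group; adjusted p = 0.26 over 13 pairs of probe sets of the same gene).

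Pfkm, the muscle type, had signals of 404, 402 and 430.4 in TSR samples, against 289.7, 349 and 272 in control samples. The groups did not overlap, although control replicate 2 lay nearer to the TSR samples, and the log2 fold change was 0.45 (standard error 0.096, adjusted p = 0.0049 from limma). Pfkp, the platelet type, had 1406, 1343 and 1366 in TSR and 987, 1039 and 1005 in control samples by its brighter probe set. The spread within each group was small, with 1372 ± 32.0 in TSR and 1010.2 ± 26.4 in control samples (SD, n = 3 each), and the log2 fold change was 0.44 (standard error 0.045, adjusted p = 8.4e-05 from limma). The second Pfkp probe set was the 1 member probe set below the filter, with 52.2, 17.5 and 42.0 in TSR and 10.5, 31.5 and 15.6 in control samples. Its groups overlapped, and 2 of 3 control arrays had it in the lowest 25% of their signals. Fitted with no filter it had a log2 fold change of 0.97 and did not pass (adjusted p = 0.26 from limma).

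Aldoa encodes aldolase A, which splits fructose 1,6-bisphosphate into a pair of triose phosphates. It was read by 4 probe sets, all of a kind whose probes can also bind related sequences. The probe set with the highest control signal had 8535, 9668 and 7894 in TSR against 7066, 7435 and 7232 in control samples. This was the smallest of the Aldoa changes, with a log2 fold change of 0.26 (standard error 0.071, adjusted p = 0.016 from limma). It did not pass under median centring (adjusted p = 0.18), without control replicate 1 (0.061) or in the methods' test (0.11 on linear and 0.092 on log2 signals), with the direction kept in each. The probe set with the lowest control signal had 5330.1, 5631 and 5473 in TSR and 3248, 3252 and 3751 in control samples. It showed the largest Aldoa change, 0.68 (standard error 0.062, adjusted p = 4.4e-05 from limma). The other two Aldoa probe sets had log2 fold changes of 0.43 and 0.39 with no overlap between groups. The 4 Aldoa probe sets thus spanned 0.26 to 0.68. In 4 of their 6 pairs the within-array log2 ratio of the pair did not overlap between TSR and control (exact permutation p = 0.1, two-sided, adjusted p = 0.26 over the 13 pairs). These pairs share probe sets, and the share of such pairs over all genes of the array was not taken.

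Tpi1 encodes triose phosphate isomerase, which interconverts the products of aldolase. Its 3 probe sets rose by a like small amount, with log2 fold changes of 0.22, 0.25 and 0.23. The brightest, of the same kind as those of Aldoa, had signals of 4825, 4963 and 4753 in TSR against 4178, 4362 and 3985 in control samples. The next had 4253, 4585 and 4118 in TSR against 3483, 3722 and 3717 in control samples. The dimmest had 3021, 3099 and 2967 in TSR against 2636, 2542 and 2581 in control samples. The groups did not overlap in any of the 3, with adjusted p = 0.0055, 0.0053 and 0.0019 from limma, and the within-array ratios between them overlapped between groups in all 3 pairs. After median centring the log2 fold changes were 0.11, 0.14 and 0.12 and no longer passed (adjusted p = 0.16, 0.13 and 0.081).

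Gapdh, the dehydrogenase that follows Tpi1 in the pathway, had no probe set of its own in the limma test. It was read by control probe sets of the array against the 5′ part, the middle and the 3′ part of the transcript. The 5′ part had signals of 7947, 8019 and 7476 in TSR against 3472, 3529 and 3400.4 in control samples. The middle had 7203, 8031 and 6738 in TSR against 3381, 3589 and 3357 in control samples. The 3′ part had 7048, 7623 and 6698 in TSR against 4901, 5346 and 4729 in control samples. All 3 parts were higher in every TSR sample, by 1.17, 1.09 and 0.51 on the log2 scale from 5′ to 3′ (exact permutation p = 0.1 each, two-sided). The size of the difference thus varied with the part of the transcript. For beta-actin (Actb) the same contrast gave 0.25 at the 5′ part, -0.048 in the middle and -0.30 at the 3′ part. The 5′ minus 3′ log2 signal was 0.66 higher for Gapdh and 0.55 higher for beta-actin in TSR than in control samples. The Gapdh shift was larger than the log2 fold change of 13 of the 17 tested member probe sets, and the beta-actin shift larger than that of 12. Where in their transcripts the member probe sets lie was not examined, and the part of these shifts in the members' changes was not tested.

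**Figure D2:**
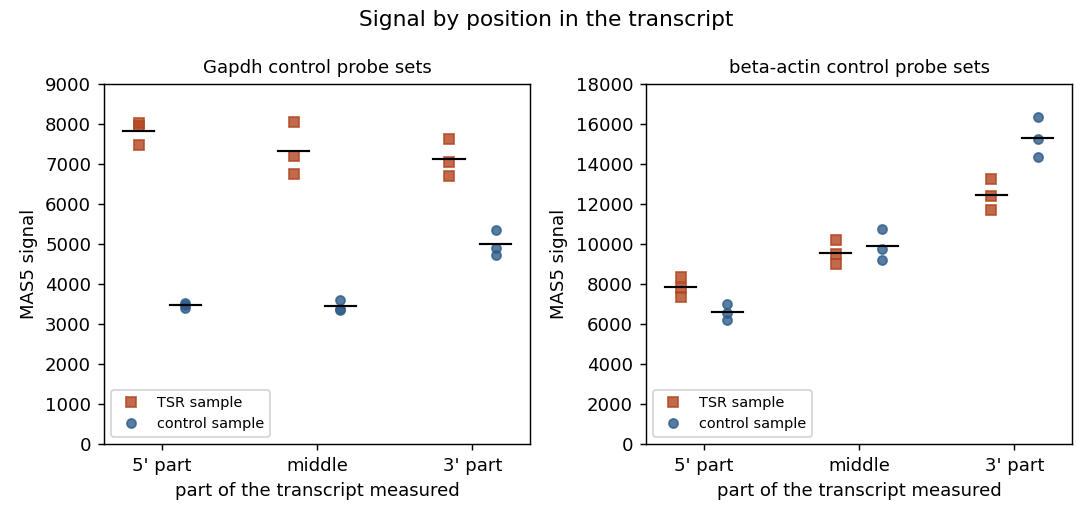
MAS5 signal (linear axis from 0) of the array's control probe sets against the 5′ part, the middle and the 3′ part of Gapdh (left) and beta-actin (right) in 3 TSR samples (squares) and 3 control samples (circles), with group means as bars. For Gapdh every part is brighter in TSR, by 1.17 on the log2 scale at the 5′ part and 0.51 at the 3′ part. For beta-actin the 5′ part is brighter and the 3′ part dimmer in TSR.

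Pgk1 encodes phosphoglycerate kinase, the first step of the pathway to yield ATP, and 1 of its 3 probe sets was called. Those not called were, like the Aldoa probe sets, of the kind whose probes can also bind related sequences, and the called one was not. The brightest Pgk1 probe set had signals of 3475, 3419 and 3602 in TSR against 3202, 3277 and 3762 in control samples. The groups overlapped because control replicate 3 was the highest of the 6 samples, and the log2 fold change was 0.039 (95% confidence interval -0.11 to 0.18, adjusted p = 0.65 from limma). The next probe set had 3145, 3169 and 3052 in TSR against 2733, 2882 and 2629 in control samples. It was the 1 Pgk1 probe set without overlap, and rose by a log2 fold change of 0.18 (standard error 0.047, adjusted p = 0.011 from limma), a call lost after median centring (adjusted p = 0.30). The dimmest had 679, 705 and 661 in TSR against 716, 604 and 519 in control samples. Its log2 fold change was 0.16 (95% confidence interval -0.069 to 0.40, adjusted p = 0.22 from limma). Without control replicate 1, the highest control sample, it was 0.28 (adjusted p = 0.025).

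Pgam1 encodes phosphoglycerate mutase, which converts 3-phosphoglycerate to 2-phosphoglycerate. Its single probe set had nearly equal signals of 2281, 2290.4 and 2282 in TSR samples, against 995, 1018 and 1910.5 in control samples. Control replicate 3 was 1.88 times the next control sample and still below all TSR samples. The log2 fold change was 0.87 (standard error 0.21, adjusted p = 0.0087 from limma). Without control replicate 3 it was 1.18 (adjusted p = 2.2e-06), and in the methods' test it did not pass (adjusted p = 0.075 on linear and 0.10 on log2 signals). The SD of log2 signals among control samples was 0.53 for Pgam1, a value exceeded by 1.26% of all probe sets tested.

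Pkm encodes the muscle-type pyruvate kinase, in alternatively spliced M1 and M2 forms, which makes pyruvate and ATP in the last step of glycolysis. It had signals of 1472, 1393 and 1430.1 in TSR samples, against 534, 597 and 522 in control samples. The lowest TSR sample was 2.33 times the highest control sample. The ratio of means was 2.60, with a log2 fold change of 1.38 (standard error 0.061, adjusted p = 7.8e-07 from limma), above that of 99.0% of all probe sets tested. Over the 15 alternatives the log2 fold change of Pkm lay between 1.27 and 1.44 with a call in all of them. Whether the single probe set reads M1, M2 or both was not examined.

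Ldha encodes the A subunit of lactate dehydrogenase, which reduces pyruvate to lactate. Its probe set had signals of 8653, 9094 and 7921 in TSR samples, against 7353, 8154 and 7320.5 in control samples. TSR replicate 3 lay below control replicate 2, so the groups overlapped. The log2 fold change was 0.17 (95% confidence interval 0.019 to 0.32 before adjustment, adjusted p = 0.063 from limma). Ldha depended on the scaling: its log2 fold change was 0.38 after quantile normalization (adjusted p = 8.5e-05) and 0.062 after median centring (adjusted p = 0.56). It also passed without control replicate 2 (0.22, adjusted p = 0.025) and without TSR replicate 3 (0.22, adjusted p = 0.022).

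**Figure D3:**
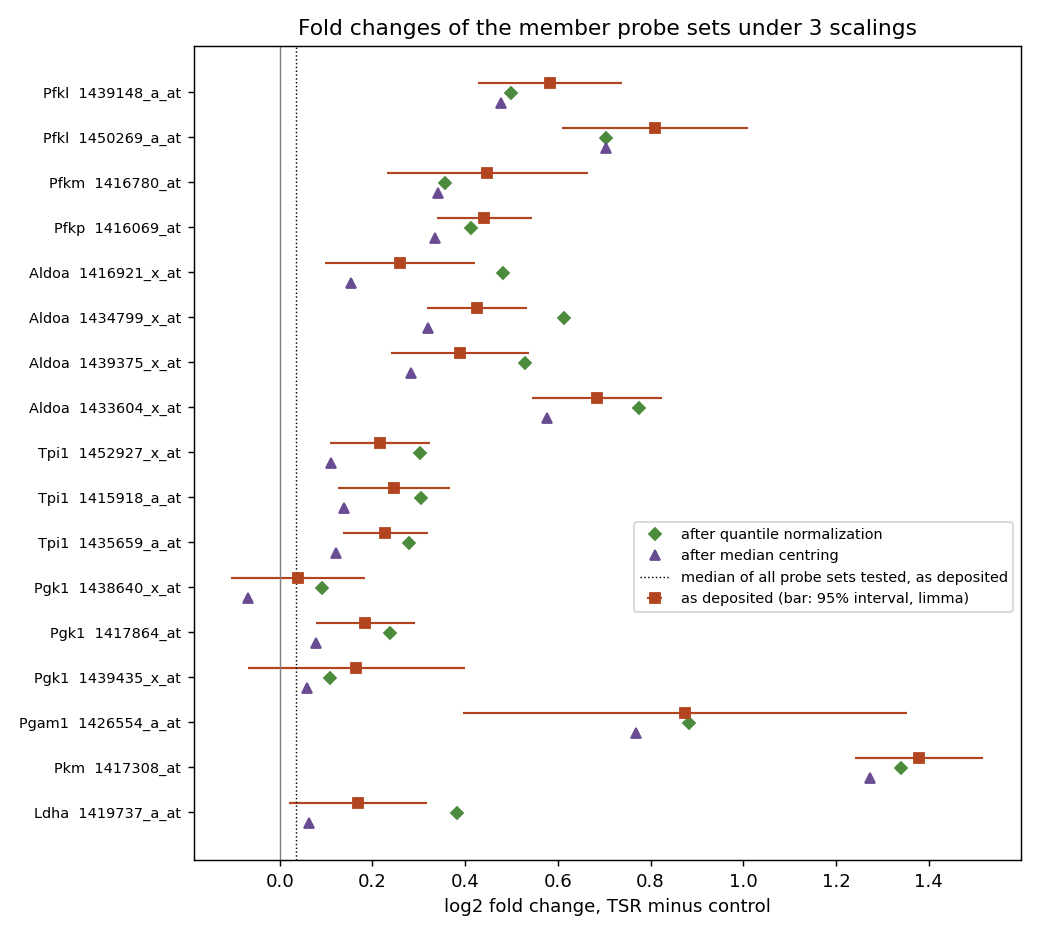
Log2 fold change, TSR minus control, of the 17 tested probe sets of core glycolytic enzymes as deposited (squares, with 95% confidence intervals from limma), after quantile normalization (diamonds) and after median centring (triangles). Pkm lies between 1.27 and 1.38 under the 3 scalings, whereas Ldha lies between 0.062 and 0.38. The dotted line marks the median of all probe sets tested, 0.035.

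Across the 9 genes, the brightest probe set was called higher after TSR for 7, all but Pgk1 and Ldha. All tested probe sets were called higher for the same 7. Counted by probe set, 25.6% of all tested were called higher, and a share by gene was not taken. The 17 log2 fold changes were all positive, from 0.039 to 1.38, against a median of 0.035 over all probe sets tested. Among TSR samples replicate 2 was the highest in 12 of the 17 probe sets, and among control samples replicate 2 was the highest in 10. Several of the 17 belong to the same gene, and the order of the samples over all probe sets tested was not taken.

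The sequences upstream of 4 members are shown because these genes mark the ends of the range, Pkm and Pgam1 with the largest changes and Pgk1 and Ldha with no call by their brightest probe set. Each is the 250 bases before a transcription start in RefSeq (GRCm38.p6), on the strand of the gene: chr9:59656326-59656575 and chr9:59656977-59657226 for the upstream and downstream starts of Pkm, chr19:41911621-41911870 for Pgam1, chrX:106186850-106187099 for Pgk1 and chr7:46845554-46845803 for the first start of Ldha, all on the plus strand. Capitals mark CACGTG (the E-box, bound by CLOCK and BMAL1 and by other factors of the same class), ACGTG and GCGTG (the core of the hypoxia response element) and GGGCGG (the GC box), each searched on both strands.
Pkm, upstream start: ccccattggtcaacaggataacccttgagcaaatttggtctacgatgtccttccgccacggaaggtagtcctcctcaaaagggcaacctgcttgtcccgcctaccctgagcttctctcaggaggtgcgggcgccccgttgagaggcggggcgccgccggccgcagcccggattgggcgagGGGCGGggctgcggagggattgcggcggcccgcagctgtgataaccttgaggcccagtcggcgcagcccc
Pkm, downstream start: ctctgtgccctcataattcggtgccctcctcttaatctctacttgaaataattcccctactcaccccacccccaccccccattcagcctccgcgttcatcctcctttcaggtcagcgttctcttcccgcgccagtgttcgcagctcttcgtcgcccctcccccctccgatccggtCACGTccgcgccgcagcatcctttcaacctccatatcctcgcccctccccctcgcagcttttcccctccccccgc
Pgam1: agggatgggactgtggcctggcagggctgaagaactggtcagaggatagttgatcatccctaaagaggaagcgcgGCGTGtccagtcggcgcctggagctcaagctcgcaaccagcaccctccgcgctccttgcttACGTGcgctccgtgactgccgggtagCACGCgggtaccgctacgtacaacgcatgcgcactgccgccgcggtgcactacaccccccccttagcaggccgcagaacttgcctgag
Pgk1: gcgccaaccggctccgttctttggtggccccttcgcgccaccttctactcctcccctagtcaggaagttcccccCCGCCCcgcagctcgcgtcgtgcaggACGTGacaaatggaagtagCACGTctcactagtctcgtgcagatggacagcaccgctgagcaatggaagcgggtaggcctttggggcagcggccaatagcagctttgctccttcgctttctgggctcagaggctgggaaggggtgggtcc
Ldha: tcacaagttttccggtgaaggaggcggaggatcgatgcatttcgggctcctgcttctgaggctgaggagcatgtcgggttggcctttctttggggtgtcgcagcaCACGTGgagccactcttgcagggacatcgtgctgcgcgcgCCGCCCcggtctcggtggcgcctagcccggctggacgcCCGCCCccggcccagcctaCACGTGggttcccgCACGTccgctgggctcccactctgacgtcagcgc
CACGTG was in 2 of 17 windows of the 10 members, 1 of Pfkm and 1 of Ldha, and in 6.02% of 32851 windows of all genes. The Ldha window held it at 2 places, starting 145 and 48 bases before the transcription start. ACGTG, which every CACGTG also contains, was in 8 of 17 member windows, of 6 of the 10 members, and in 16.6% of all windows. GCGTG was in 6 of 17 (5 members) and 28.2%, and GGGCGG in 8 of 17 (7 members) and 32.7%. Some windows of the same gene overlap, as for Aldoa and Pfkm, so a site can be counted in more than 1 window. A match to these letters is a description of the sequence and not of binding.

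Among other enzymes of glycolysis 1 probe set was called. Of 20 genes listed, 13 were measured by a probe set with 1 symbol, and 12 probe sets of 6 of them were tested. Only Hk2, the hexokinase that responds to insulin and traps glucose as glucose 6-phosphate, was called, with signals of 4886, 4950.3 and 4902 in TSR against 2263, 2381 and 2327 in control samples. It rose by a log2 fold change of 1.08 (standard error 0.04) with no overlap between groups. The other 11 probe sets, of Hk1, Adpgk, Bpgm, Eno3 and Ldhb, did not pass, and the median of the 12 was -0.022. Hk1, the hexokinase of most tissues, had signals of 362, 344 and 374 in TSR against 407, 439 and 389 in control samples, without overlap (log2 fold change -0.19, adjusted p = 0.051 from limma). In the other direction, 1 Bpgm probe set had 123, 153 and 132 in TSR against 111, 95.2 and 113 in control samples. Its groups did not overlap either (log2 fold change 0.35, adjusted p = 0.053 from limma). The other Bpgm probe sets had 0.11 and -0.022, with overlap. After median centring 1 of the 12 was higher and 3 were lower. Ldhb, the heart-type subunit of lactate dehydrogenase, had 4 probe sets with log2 fold changes between -0.17 and -0.021. Whether the core members and these enzymes differ was not tested.

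Gluconeogenesis runs the pathway in reverse through its own enzymes at the irreversible steps. Of 6 tested probe sets for 5 of its 7 genes, 3 were higher and 1 was lower after TSR. Fbp1, fructose bisphosphatase, which reverses the step of phosphofructokinase, had signals of 264, 299.96 and 239 in TSR against 35.7, 27.2 and 26.0 in control samples (log2 fold change 3.18, standard error 0.17). Pck1, phosphoenolpyruvate carboxykinase, which serves glycerol synthesis in fat, had 2130.1, 1776 and 2019.6 in TSR against 4088, 3886 and 4474 in control samples (log2 fold change -1.07, standard error 0.08). Pcx, pyruvate carboxylase (0.24), and G6pc3, a glucose 6-phosphatase found in most tissues (0.49), rose, and both probe sets of Pck2 did not pass. An array control probe set of Pcx was outside the test, and the paper's own list of regulated genes gives it a larger rise. G6pc, the glucose 6-phosphatase of liver and kidney, and Fbp2 were below the filter. Both were in the lowest 25% of signals on every control array, and against that limit G6pc was at least 1.89-fold and Fbp2 at least 1.46-fold higher in TSR samples.

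**Figure D4:**
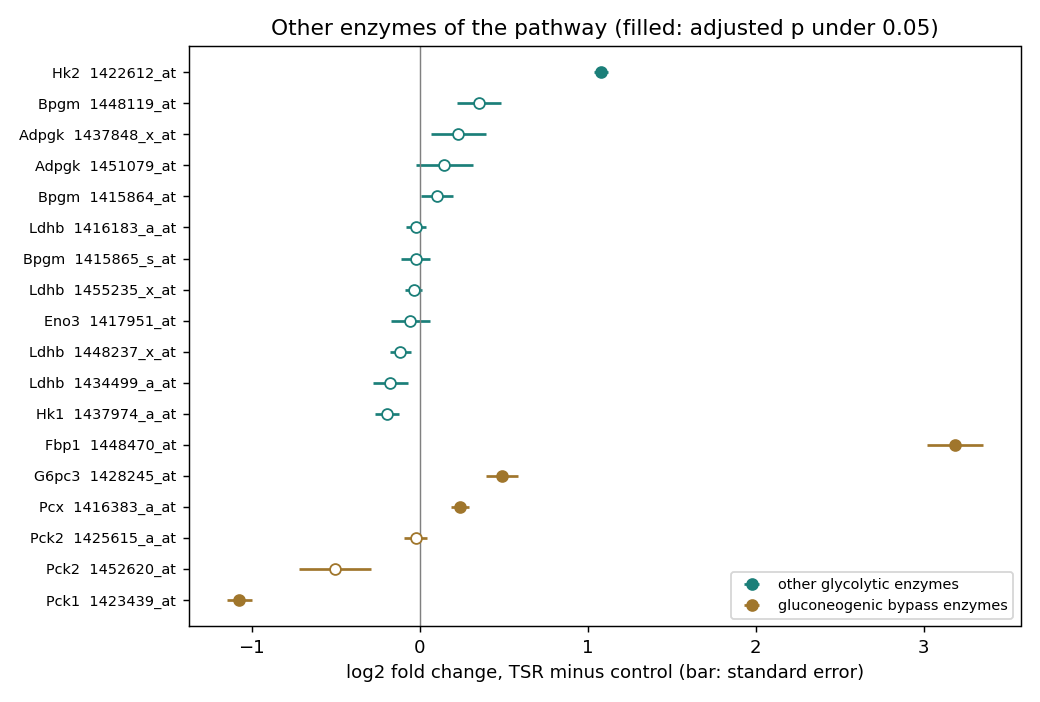
Log2 fold change, TSR minus control, with standard errors from limma, of the tested probe sets of other glycolytic enzymes (12, upper rows) and of gluconeogenic bypass enzymes (6, lower rows). Filled points have an adjusted p under 0.05. Among the glycolytic enzymes only Hk2 (1.08) is filled, while Fbp1 (3.18) lies highest and Pck1 (-1.07) lowest among the bypass enzymes.

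Genes that mark other cells moved with the groups as well, and in whole tissue fewer cells of a type and less RNA per cell cannot be told apart. Albumin (Alb), a hepatocyte marker, had a mean signal of 3205 in TSR and 129 in control samples, and Cyp2e1, the brightest gene of that list, had 12454.7 and 16621 in the same order. In control samples 8 of the 25 hepatocyte probe sets lay below the 25th percentile of every array, and in TSR samples 0 did. Pklr, the liver-type pyruvate kinase, lay below the 25th percentile of every array of both groups by 2 of its 3 probe sets. At that low level 1 of these 2 had signals of 22.6, 17.2 and 21.3 in TSR and 10.4, 13.5 and 6.42 in control samples, without overlap. The other had 15.3, 5.56 and 8.63 in TSR and 7.39, 4.31 and 4.88 in control samples, with overlap. The remaining Pklr probe set had signals of 44.8, 13.2 and 28.9 in TSR and 24.0, 22.3 and 19.2 in control samples, also with overlap. None of the 3 was tested. Of 15 macrophage probe sets 13 were lower and 0 higher, with a summed signal between 21743.6 and 22604 in TSR and between 33562.7 and 33943.2 in control samples. The brightest genes of that list were Lyz2 (5624 in TSR and 8065 in control samples on average) and Csf1r (4163 and 5713.5 in the same order). All 4 tested probe sets of dividing cells were lower, summed over 16 between 366 and 400.5 in TSR and between 773 and 811 in control samples, among them Mki67 with 34.7 and 142 and Top2a with 47.4 and 119.6.

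Skeletal muscle, a tissue rich in Pfkm and Aldoa, had 3 of 20 marker probe sets above the filter. Acta1, skeletal muscle actin, averaged 1871 in TSR and 399 in control samples, and Eno3, muscle-type enolase, 192 and 199 in the same order. The summed signal of the list, between 2344 and 2439.97 in TSR and between 959.6 and 1012 in control samples, moved with Acta1. Creatine kinase of muscle (Ckm) was near the lower end of the arrays, with 31.2 in TSR and 22.2 in control samples, and 11 of the 20 probe sets lay below the 25th percentile of every TSR array and 9 below that of every control array. Of 7 probe sets of red blood cells 2 were tested and neither passed, Hbb-b2 with 156 in TSR and 142 in control samples and Alas2 with 132 and 113. Adipocyte markers were mixed, with 6 of 14 probe sets higher and 7 lower after TSR. The part of these cell types in the members' changes was not tested.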

How the data were processed

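RNA of epididymal WAT from 3 TSR and 3 control samples was hybridized to one Affymetrix mouse array each. Intensities came from the MAS5 algorithm in Affymetrix Expression Console, run by the authors (versions not given in the sources used here), and were deposited without a log transform. The equal trimmed means of the arrays come from the values; a scaling target is not given in the sources used here. No genome coordinates come from the table. Its annotation gave 1 symbol for 20380 of 22626 probe sets other than the 64 array controls, and the Entrez identifiers of 9 of 10 members matched RefSeq. A symbol missing from the annotation (such as Gpi1 or Eno1) was not analysed here.

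Signals were taken to log2. Array controls were left out, as were the 35% of remaining probe sets with the lowest mean (log2 below 5.45), in place of the authors' expression calls. The remaining 14707 probe sets were compared with limma 3.58.1 in R 4.3.3 (two-sided moderated test, prior variance following intensity), with Benjamini-Hochberg adjustment over all of them and a threshold of 0.05. Probe sets were counted one by one. Pairs of probe sets of one gene were compared by their within-array log2 ratio between groups, never by their levels, since probes differ in affinity; sums over marker lists describe each list as a whole. For a probe set in the lowest 25% of every control array the fold is a lower bound: mean log2 TSR signal against the mean log2 of the arrays' 25th percentiles. Single values were compared by exact permutation. Precision is limited by having 3 arrays a group. The computation was tested on simulated data.

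The members, gene lists, tests and alternatives were chosen with earlier results of these data known. All members were named, of the pathway lists all called probe sets and the remaining genes by name, and of marker lists the counts and the 2 brightest genes. Pklr and Ckm were named with values after these were seen. The alternatives were the methods' test (Student's, unmoderated, on linear and log2 signals), limma without the trend, median centring, quantile normalization, a filter of 50% or none, a floor at each array's 25th percentile, a block for the replicate number, and leaving out single samples.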

Additional observations from a re-analysis of the deposited data

How the results depend on the processing

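Of 17 tested member probe sets, 8 were called under all 15 alternatives (15.9% of all probe sets tested in every one rose in all), those of Pfkl, Pfkm, Pfkp and Pkm and 3 of the 4 of Aldoa, and 16 were higher in all. The exception was the brightest Pgk1 probe set, not called in any setting, with -0.068 after median centring and a range from -0.0055 to 0.11 when single samples were left out. Median centring lowered the count of members called to 9, the methods' test to 12, and quantile normalization gave 15. Of all calls 55.0% were higher as deposited, 47.8% after quantile normalization and 36.0% after median centring. Other glycolytic enzymes, with 1 called, counted 2 without the trend, after quantile normalization and with the lowest 50% left out, 4 after median centring, and 1 to 3 when single samples were left out. Gapdh control probe sets had differences of 0.41 at the 3′ part and 1.07 at the 5′ part after median centring. The causes were not tested.

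Leaving out single samples gave 14 or 15 called members, 5578 to 6398 called probe sets in all, 4 or 5 called bypass enzymes and 5 to 7 of 13 pairs without overlap. A share of pairs over all genes of the array was not taken. Samples with the same replicate number deviated with correlations of 0.015, 0.19 and 0.17, against -0.22 to 0.058 for different numbers. As 1 of the 3 was below 0.1, the numbers were not taken as pairs. With the replicate number as a block 15 members and 7434 probe sets were called, Ldha among them (adjusted p = 0.0033). Each group had 3 arrays, which limits all of these values.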

Other observations

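Isozymes of glycolysis that are known from sperm cells were below the filter. Pgk2, the testis form of phosphoglycerate kinase, had signals of 1.18, 16.4 and 16.6 in TSR and at most 8.69 in control samples, in the lowest 25% of all 6 arrays. One probe set of Ldhc, the testis form of lactate dehydrogenase, was there on all 6 arrays as well, and the other on all TSR arrays and 2 control arrays. Gapdhs, the sperm form of Gapdh, averaged 41.0 in TSR and 22.7 in control samples with overlap between the groups. It lay in the lowest 25% of 2 control arrays and of 0 TSR arrays. Pgam2, the muscle form of phosphoglycerate mutase, averaged 6.00 in TSR and 3.52 in control samples. The brain forms Aldoc and Eno2 were below the filter too, and the Eno2 signals of 35.4, 28.4 and 32.6 in TSR lay below all control signals of 46.1, 42.1 and 44.5.

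Probe sets annotated to Gapdh together with other genes or pseudogenes were outside the members. The brighter had signals of 7927, 8501 and 7249 in TSR against 6055, 6551 and 5767 in control samples (log2 fold change 0.36, adjusted p = 0.0027 from limma), and the dimmer 190.5, 175 and 226 against 107, 55.1 and 124 in the same order (1.12, adjusted p = 0.0091).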
